A study of Mus musculus with 24 samples.

Results

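Transcripts of 6 genes that store iron, take it up or sense it were followed in microglia, macrophages that live in brain tissue. They were ferritin heavy chain Fth1 (Entrez gene 14319), ferritin light chain Ftl1 (14325), the transferrin receptor Tfrc (22042), the iron regulatory proteins Aco1 (11428) and Ireb2 (64602), and the ferritin cargo receptor Ncoa4 (27057). They were picked by name from the 15878 genes with values, with earlier results of these data known, and all 6 had values and passed the filter on low counts. RNA came from microglia sorted from brains of wild-type (WT) mice by fluorescence-activated cell sorting and was amplified by Smart-seq2. Each of the 4 groups held 6 libraries, all labelled day 28. WD-Exos and ND-Exos mice had the BCAS operation and received exosomes of the kind that the labels call WD or ND, 100 µg into the tail vein every 3 days. BCAS mice had the operation and PBS, a saline buffer, and Sham mice had PBS without BCAS, as the library names give it. The labels attach the same text on exosome injections to every library, those of Sham and BCAS included, so that PBS in these groups rests on the library names. BCAS commonly stands for bilateral carotid artery stenosis, a narrowing of both carotid arteries that reduces the supply of blood to the brain, and the title of the series describes the exosomes, small secreted vesicles, as derived from foam cells. The labels give no age, do not say what WD and ND stand for, and do not tie libraries to individual mice, so the p-values rest on a spread between libraries that may be technical.

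Ferritin is a hollow protein shell built from heavy chains, which oxidise iron so that it can be stored, and light chains, which help the iron core to form. Iron enters most cells when transferrin binds the transferrin receptor, and it leaves ferritin when NCOA4 carries the shell to the lysosome. The proteins made from Aco1 (IRP1) and Ireb2 (IRP2) bind hairpins called iron-responsive elements when iron is scarce: bound in the 5′ UTR of the ferritin mRNAs they block translation, and bound in the 3′ UTR of Tfrc they keep the mRNA from being degraded. IRP1 doubles as the cytosolic aconitase when it holds an iron-sulfur cluster, whereas IRP2 is degraded when iron is plentiful. Microglia are among the brain cells richest in ferritin, and part of this control acts on translation and protein stability, which RNA counts do not measure.

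The elements are shown because the members of this system are linked through them. The transcripts (GENCODE release 21 for mouse, build GRCm38, on the transcript's own strand) were searched for an unpaired C, 5 bases, the loop CAGTGN whose last base is A, C or T, and 5 bases that pair with the first 5, with G-T pairs allowed. Each element is printed 5′ to 3′ over 29 bases with the loop in capitals. The first is in the 5′ UTR of Fth1 at chr19:9982732-9982760 (plus strand), the second in the 5′ UTR of Ftl1 at chr7:45459779-45459807 (minus strand). The other 4 are in the 3′ UTR of Tfrc on the plus strand, at chr16:32631219-32631247, chr16:32631598-32631626, chr16:32631663-32631691 and chr16:32631710-32631738. Each lies within 1 exon. The annotated transcripts of these 3 genes span chr19:9982646-9985098, chr7:45457944-45459884 and chr16:32608920-32632794. Those of Ireb2, Aco1 and Ncoa4 span chr9:54863789-54912530, chr4:40143081-40198338 and chr14:32165791-32179247, all on the plus strand.
Fth1: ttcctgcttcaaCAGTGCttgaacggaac
Ftl1: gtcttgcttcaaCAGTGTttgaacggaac
Tfrc 1: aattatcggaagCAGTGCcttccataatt
Tfrc 2: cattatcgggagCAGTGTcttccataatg
Tfrc 3: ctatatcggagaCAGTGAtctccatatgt
Tfrc 4: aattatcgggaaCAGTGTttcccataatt
The ferritin elements are the same at 26 of 29 bases and differ, Fth1 base first and counted from the 5′ end of the printed stretch, by T1G, C4T and C18T, the last of which is in the loop. The same search matched the 5′ UTR of 18 of 21875 protein-coding transcripts (0.0823%) and the 3′ UTR of 78 (0.357%). Aco1, Ireb2 and Ncoa4 held no match to these letters. Nor did the transcripts searched of Slc11a2 and Epas1, which are listed as known to carry an element. The search can thus miss elements, and the matches in Tfrc need not be all that it has. The iron exporter Slc40a1 held a match in its 5′ UTR.

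The libraries held 24277722 to 28892423 estimated counts, with a count for 8518 to 10802 genes. The microglial label was checked with 8 markers, all with values in every group, whose summed level averaged 49798 CPM in WD-Exos, 44263 in ND-Exos, 49526 in BCAS and 43073 in Sham (CPM, each count relative to its library's total after TMM scaling). Border macrophage markers summed to 221 ± 65.3 CPM in WD-Exos, 457 ± 224 in ND-Exos, 354 ± 176 in BCAS and 645 ± 511 in Sham (SD, n = 6 each, 8 of 8 markers with values). Oligodendrocyte markers summed to between 4541 and 5974 CPM by group mean, of which 3823 to 4382 CPM was Trf. Trf encodes transferrin, the ligand of the transferrin receptor. Single libraries ran from 1581 CPM in BCAS replicate 2 to 13496 in Sham replicate 4. Mural cell markers averaged 192 ± 391 CPM in Sham, with replicate 2 at 981, and 0.0263 to 5.09 in the other groups. Neuron markers averaged 55.5 ± 118 CPM in Sham, with replicate 1 at 297, and 5.11 to 7.47 in the others. Endothelial markers averaged 612 to 841 CPM by group, astrocyte markers 149.9 to 261, and monocyte and neutrophil markers 0.00638 to 9.01. Erythroid markers, of which 5 of 6 had values, summed to 2.33 CPM in WD-Exos, 0 in ND-Exos, 0.81 in BCAS and 0.342 in Sham. Sorted cells were measured in bulk, so fewer cells of a type and less RNA per cell cannot be told apart.

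Ferritin transcripts were among the most abundant of the 10219 tested genes, and the other members lay far below them. By mean CPM over the 24 libraries Ftl1 ranked 18 and Fth1 ranked 23 of 10219, while Ncoa4 ranked 514, Aco1 3547, Ireb2 6109 and Tfrc 7833. Scaled by transcript length, the mean level was 5290 CPM per kb for Ftl1 and 4950 for Fth1, against 77.3 for Ncoa4, 9.18 for Aco1, 2.48 for Ireb2 and 1.45 for Tfrc. The mean coefficient of variation between libraries of a group was 16.5% for Fth1, 16.9% for Ftl1 and 24.4% for Ncoa4, but 61.4% for Aco1, 76.2% for Ireb2 and 100.8% for Tfrc. The abundant storage genes could thus be compared more closely between groups than the sparse uptake and sensing genes.

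No member passed an adjusted p of 0.05 in any of the 6 comparisons of groups (edgeR quasi-likelihood test, Benjamini-Hochberg adjustment over all 10219 genes). Few genes of any kind did. The share of all tested genes past the threshold was 0% in BCAS against Sham, 0.0196% in ND-Exos against BCAS, 0% in WD-Exos against BCAS, 0.0196% in WD-Exos against ND-Exos, 0.108% in ND-Exos against Sham and 0% in WD-Exos against Sham. Read against that background, 0 of 6 members is not a result about them. At an unadjusted p under 0.05, 1 member, Fth1, came up in WD-Exos against Sham and none in the other 5 comparisons, while 3.71% to 6.66% of all genes did across the 6. DESeq2 also called 0 of 6 members in each comparison, against 2%, 1.54%, 1.17%, 1.23%, 2.13% and 1.65% of all genes in the order above. Voom with library weights called 0 of 6 as well, against 0.0979%, 0.00979%, 0.00979%, 0.0391%, 0.44% and 0.636% of all genes. Unadjusted, DESeq2 gave a p under 0.05 for Fth1 in WD-Exos against Sham, and voom gave one for Fth1 in WD-Exos against Sham and against ND-Exos and for Tfrc in ND-Exos against Sham.

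**Figure D1:**
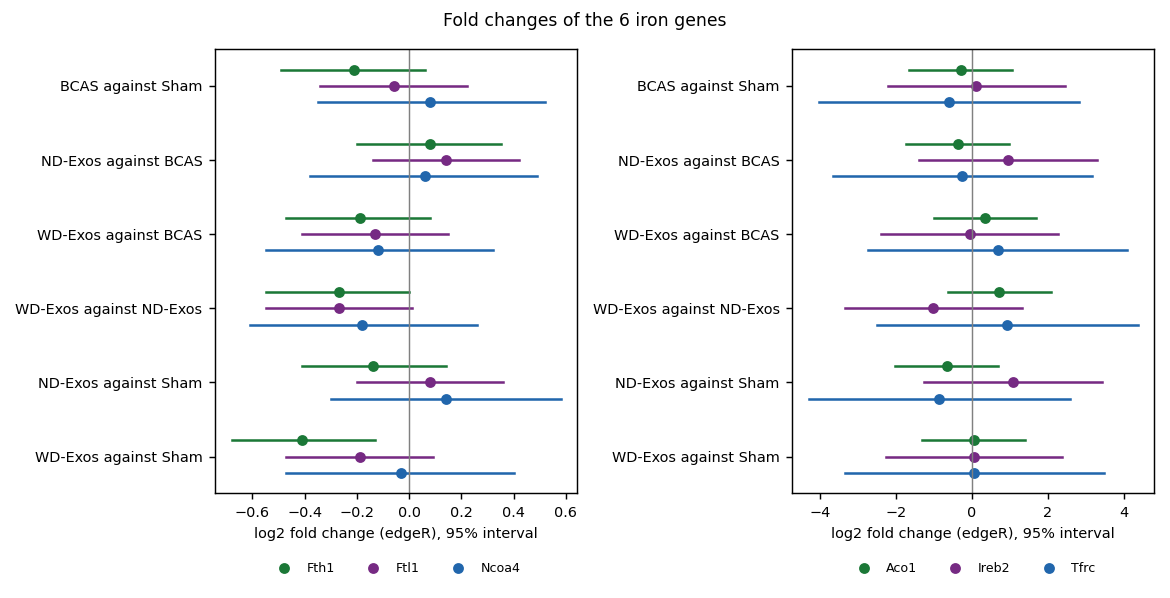
Log2 fold change (x axis, edgeR) and its 95% interval for each member in each comparison (y axis), named group over the group it is set against; the left and right panels have different x ranges. Of the 36 intervals, the one for Fth1 in WD-Exos against Sham, -0.68 to -0.13, is the one that lies clear of 0.

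Fth1 had its lowest mean in WD-Exos and its highest in Sham. It stood at 3932 ± 624 CPM in WD-Exos, 4747 ± 895 in ND-Exos, 4499 ± 800.1 in BCAS and 5215 ± 703 in Sham (SD, n = 6 each). The lowest, median and highest libraries were 3095, 3791 and 4791 CPM in WD-Exos, 3762, 4760.0 and 5699 in ND-Exos, 3648, 4245 and 5841 in BCAS, and 4379, 5133 and 6231 in Sham. In WD-Exos, 4 of 6 libraries lay below every Sham library, and the other 2 fell within the Sham range. Fth1 in WD-Exos was 0.754 times its Sham level (log2 fold change -0.41, SE 0.13, unadjusted p = 0.00542, edgeR adjusted p = 0.396) and ranked 138 of 10219 genes by p in that comparison. The difference kept its sign without any single library, between -0.46 and -0.34 on the log2 scale, with an edgeR adjusted p of 0.262 to 0.63.

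The other Fth1 differences were smaller. WD-Exos stood at 0.828 times ND-Exos (log2 fold change -0.27, 95% interval -0.55 to 0.0, edgeR adjusted p = 0.955), with 3 of 6 WD-Exos libraries below every ND-Exos library. WD-Exos against BCAS gave -0.19 (-0.47 to 0.08) and BCAS against Sham gave -0.21 (-0.49 to 0.06), where 4 of 6 BCAS libraries lay below every Sham library. ND-Exos differed from Sham by -0.14 (-0.41 to 0.14) and from BCAS by 0.08 (-0.2 to 0.35). The comparisons with Sham share its 6 libraries, and the same holds for those that share another group. None of these had an adjusted p under 0.955.

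Among the measures of the libraries, the ribosomal protein share and the microglial markers had the Spearman correlations with Fth1 farthest from 0. Those of the other measures lay between -0.21 and 0.37. The share of counts from 81 ribosomal protein genes was 4 ± 0.618% in WD-Exos, 4.32 ± 0.474% in ND-Exos, 4.23 ± 0.764% in BCAS and 5.82 ± 0.51% in Sham (SD, n = 6 each). Over the 24 libraries its Spearman correlation with Fth1 was 0.77, and that of the summed microglial markers with Fth1 was -0.68, both on quantities that share each library's scaling. Those 8 markers summed to 43674 to 57182 CPM in WD-Exos, 30184 to 52531 in ND-Exos, 39237 to 56626 in BCAS and 38825 to 47197 in Sham, with none at 0. The ribosomal share was looked at after the genes most like Fth1 had been seen. The part of either measure in the Fth1 difference was not tested.

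Ftl1 also had its lowest mean in WD-Exos, but its highest in ND-Exos. It stood at 4620.4 ± 656 CPM in WD-Exos, 5561 ± 851 in ND-Exos, 5053 ± 884 in BCAS and 5263 ± 1079 in Sham (SD, n = 6 each). Its lowest, median and highest libraries were 4001, 4465 and 5649.7 CPM in WD-Exos, 4169, 5665 and 6505 in ND-Exos, 4123, 4759 and 6507 in BCAS, and 4302, 5060.2 and 7150.1 in Sham. All 4 ranges overlapped, and Sham was the widest. WD-Exos stood at 0.831 times ND-Exos (log2 fold change -0.27, SE 0.14, 95% interval -0.55 to 0.01, unadjusted p = 0.0592, edgeR adjusted p = 0.999). The remaining 5 log2 fold changes of Ftl1 lay between -0.19, in WD-Exos against Sham, and 0.14, in ND-Exos against BCAS, each with an adjusted p of 1.0. Ftl1 values are less certain than those of the other members: 9 other genes hold a stretch of at least 200 bases at 90% identity or more with it, none of them with values in the table, and its count was not a whole number in any of the 24 libraries.

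The levels of both ferritin chains went together from library to library. Over 24 libraries their log2 levels had a Pearson r of 0.73 (permutation p = 0.0001, adjusted p = 0.0015 over 15 pairs of members) and a Spearman rho of 0.69 (permutation p = 0.00031, adjusted p = 0.00465). Without the 2 libraries farthest from the median of Fth1, r was 0.67, and with each group's mean removed it was 0.73. Within groups of 6 libraries r was 0.2 in WD-Exos, 0.87 in ND-Exos, 0.85 in BCAS and 0.96 in Sham, and the difference between these was not tested. Of the other 14 pairs of members, r lay between -0.28 and 0.34, and none had an adjusted permutation p under 0.556. Both chains share each library's scaling, and their correlation was not the closest for either. Pfdn5 (Spearman 0.82), Rpl26 (0.81) and Sem1 (0.8) followed Fth1 more closely, and Ndufa12 (0.76) followed Ftl1 more closely.

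**Figure D2:**
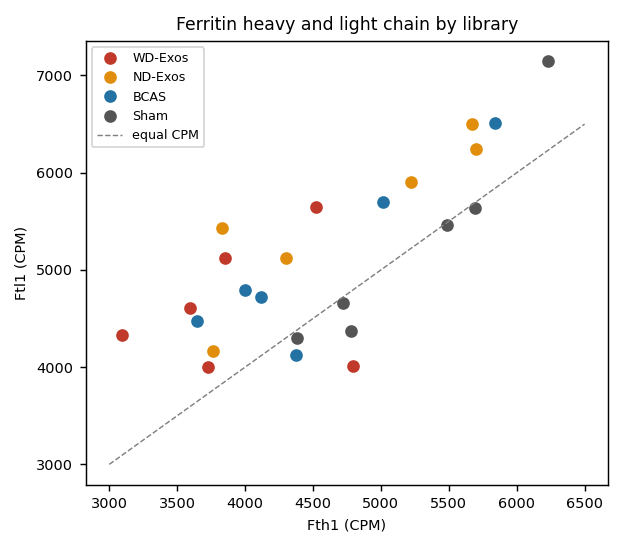
Fth1 (x axis) against Ftl1 (y axis), both in CPM, with 1 point per library coloured by group; the dashed line marks equal CPM. Points lie above the line in 5 of 6 WD-Exos, 6 of 6 ND-Exos, 5 of 6 BCAS and 1 of 6 Sham libraries.

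The balance of the chains was taken as the ratio of Ftl1 to Fth1 within a library, which does not depend on how libraries are scaled; the chains are close in transcript length, 968 and 929 bases. The ratio of CPM was 1.19 ± 0.206 in WD-Exos, 1.18 ± 0.121 in ND-Exos, 1.13 ± 0.0995 in BCAS and 1.0 ± 0.0769 in Sham (SD, n = 6 each). On the log2 scale the lowest, median and highest libraries were -0.25, 0.34 and 0.48 in WD-Exos, 0.13, 0.19 and 0.5 in ND-Exos, -0.08, 0.19 and 0.29 in BCAS, and -0.13, -0.02 and 0.2 in Sham. Sham libraries were mostly low, and ND-Exos overlapped Sham only through Sham replicate 3, while the ranges of WD-Exos and BCAS overlapped Sham more widely. The log2 ratio was 0.23 higher in ND-Exos than in Sham (exact two-sided permutation p = 0.0108, adjusted p = 0.0974 over 18 ratio tests). It was 0.24 higher in WD-Exos than in Sham (exact permutation p = 0.0801, adjusted p = 0.24) and 0.17 higher in BCAS than in Sham (exact permutation p = 0.0519, adjusted p = 0.187). Without Sham replicate 3 the ND-Exos difference was 0.27 with an exact permutation p of 0.00216 and an adjusted p of 0.0195, so that 1 library decides on which side of 0.05 it lies. Between the 3 groups that had the BCAS operation the mean log2 ratios differed by at most 0.07.

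Ncoa4, the receptor that delivers ferritin to the lysosome for iron release, passed the test in no comparison. It stood at 244 ± 68 CPM in WD-Exos, 275 ± 47.6 in ND-Exos, 264 ± 75.8 in BCAS and 249.8 ± 59.2 in Sham (SD, n = 6 each). The lowest, median and highest libraries were 146, 247 and 345 CPM in WD-Exos, 210.2, 274 and 355 in ND-Exos, 170.3, 256 and 368 in BCAS, and 147, 263 and 324 in Sham. The groups overlapped almost whole. Its log2 fold changes lay between -0.18 (WD-Exos against ND-Exos, 95% interval -0.61 to 0.26) and 0.14 (ND-Exos against Sham, -0.3 to 0.58), each with an edgeR adjusted p of 1.0. Over all 6 comparisons its intervals lay within -0.61 and 0.58. Another gene holds a stretch with 99.9% identity to Ncoa4 and has no values in the table.

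Tfrc, the receptor that brings in transferrin-bound iron, was the sparsest member and the most uneven between libraries. It stood at 9.17 ± 9.39 CPM in WD-Exos, 4.8 ± 5.61 in ND-Exos, 5.74 ± 6.58 in BCAS and 8.73 ± 6.06 in Sham (SD, n = 6 each). By library, the lowest, median and highest values were 0.523, 6.19 and 22.6 CPM in WD-Exos, 0, 2.83 and 12.5 in ND-Exos, 0, 4.4 and 14.9 in BCAS, and 1.45, 8.39 and 18 in Sham. No count was found in replicate 2 of ND-Exos and replicates 5 and 6 of BCAS, where a count of 0 allows up to 0.119, 0.122 and 0.107 CPM (3 counts, counting error only). BCAS divided into 3 libraries at 8.75 CPM or more, replicates 1 to 3, and the other 3 at 0.0416 CPM or less. Its log2 fold changes lay between -0.86 (ND-Exos against Sham, 95% interval -4.29 to 2.57) and 0.93 (WD-Exos against ND-Exos, -2.5 to 4.37), with an edgeR adjusted p of 1.0 throughout. Differences of several fold in either direction lie within these intervals and could not be detected with this spread. The Tfrc estimates also depended on the processing. Under the 8 other settings they ran from -3.62 to -0.64 in ND-Exos against Sham and from -3.35 to -0.45 in BCAS against Sham. They ran from 0.91 to 2.85 in WD-Exos against ND-Exos and from 0.68 to 2.58 in WD-Exos against BCAS. In ND-Exos against BCAS they stayed between -0.28 and -0.19, and none passed the threshold in any comparison. The Tfrc to Fth1 ratio, an index of uptake over storage transcripts, had log2 means of -9.27 in WD-Exos, -10.43 in ND-Exos, -10.3 in BCAS and -9.35 in Sham, with SDs of 1.18 to 1.83, and its smallest adjusted p was 0.531 (exact permutation tests, n = 6 each).

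Aco1, which encodes IRP1, stood at 41.8 ± 13.3 CPM in WD-Exos, 25.5 ± 17.3 in ND-Exos, 32.9 ± 30.2 in BCAS and 40.4 ± 22 in Sham (SD, n = 6 each). Lowest, median and highest libraries were 18.1, 47.6 and 52.1 CPM in WD-Exos, 0.978, 24.8 and 52.7 in ND-Exos, 7.76, 19.7 and 76.4 in BCAS, and 14.5, 41.1 and 71.6 in Sham. In WD-Exos 5 of 6 libraries lay at 34.1 CPM or above, while ND-Exos reached down to 27 counts in replicate 5. The log2 fold change in WD-Exos against ND-Exos was 0.71 (SE 0.66, 95% interval -0.64 to 2.07), and the other 5 lay between -0.66, in ND-Exos against Sham, and 0.35, in WD-Exos against BCAS, each with an edgeR adjusted p of 1.0.

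Ireb2, which encodes IRP2, stood at 11.4 ± 8.45 CPM in WD-Exos, 23 ± 15.1 in ND-Exos, 11.9 ± 11.3 in BCAS and 10.9 ± 7.63 in Sham (SD, n = 6 each). The lowest, median and highest libraries were 2.69, 9.33 and 23.5 CPM in WD-Exos, 8.55, 16.2 and 49.6 in ND-Exos, 0, 10.9 and 30 in BCAS, and 0.0714, 11.7 and 19.6 in Sham. ND-Exos held the 2 libraries with the highest Ireb2 levels, replicates 2 and 3, and all 4 groups overlapped. The log2 fold change was -1.01 in WD-Exos against ND-Exos (SE 1.14, 95% interval -3.35 to 1.33), 0.95 in ND-Exos against BCAS (-1.39 to 3.29) and 1.07 in ND-Exos against Sham (-1.27 to 3.42), each with an edgeR adjusted p of 1.0. In replicate 5 of BCAS, with no count, a count of 0 allows up to 0.122 CPM.

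The balance between the iron regulatory proteins' transcripts was lower in WD-Exos than in ND-Exos. The log2 ratio of Ireb2 to Aco1, each as CPM + 1, averaged -2.03 ± 1.12 in WD-Exos, 0.14 ± 1.27 in ND-Exos, -1.68 ± 1.38 in BCAS and -2.09 ± 2.11 in Sham (SD, n = 6 each). By library, the lowest, median and highest ratios were -3.84, -1.67 and -1.03 in WD-Exos, -0.98, -0.39 and 2.27 in ND-Exos, -3.13, -2.09 and 0.22 in BCAS, and -5.68, -1.91 and -0.02 in Sham. All 6 WD-Exos libraries lay below every ND-Exos library, although the nearest, -1.03 and -0.98, almost met. The difference was -2.17 on the log2 scale, a ratio in WD-Exos of 0.22 times that in ND-Exos (exact two-sided permutation p = 0.00216, the smallest possible with 6 against 6, adjusted p = 0.039 over 18 ratio tests, with the ratios chosen when earlier results were known). It kept its sign without any single library, between -2.4 and -1.75. The adjusted p was 0.0779 without WD-Exos replicate 1, 2, 3, 5 or 6 and 0.0974 without WD-Exos replicate 4 or ND-Exos replicate 3 or 5, against 0.039 without ND-Exos replicate 1, 2, 4 or 6.

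Relative to the groups without exosomes the same ratio was higher in ND-Exos. It differed by 1.83 from BCAS (exact permutation p = 0.039, adjusted p = 0.187) and by 2.23 from Sham (exact permutation p = 0.0476, adjusted p = 0.187), neither past the threshold, with 2 of 6 ND-Exos libraries above every library of either group. WD-Exos differed from BCAS by -0.35 (adjusted p = 0.884 by the exact permutation test) and from Sham by 0.06 (adjusted p = 0.991), with ranges that overlapped. The highest ratio, 2.27 in ND-Exos replicate 5, had a low Aco1 level (0.978 CPM) rather than a high Ireb2 level (8.55 CPM). Neither gene by itself passed the test between WD-Exos and ND-Exos.

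Other measures also had different means in the exosome groups, with ranges that overlapped, and these differences were not tested. Border macrophage markers summed to 137 to 321 CPM in WD-Exos and 234 to 875 in ND-Exos, with none of the 8 at 0 throughout either group, and over the 24 libraries their Spearman correlation was 0.41 with Ireb2 and 0.17 with Aco1. A list of 10 immediate early genes, which respond quickly to stimulation and to cell handling, summed to 9178 ± 7833 CPM in WD-Exos, 3741 ± 964 in ND-Exos, 5641 ± 6627 in BCAS and 1714 ± 860.1 in Sham (SD, n = 6 each). By library it ran from 1367 to 21899 CPM in WD-Exos and from 2897 to 5431 in ND-Exos, and its Spearman correlation was 0.17 with Ireb2 and 0.12 with Aco1. In BCAS it stood at 8853, 17563 and 4382 CPM in replicates 1 to 3, where Tfrc lay at 8.75 CPM or more. The other 3 BCAS libraries had 1961, 594 and 492 CPM. WD-Exos did not divide in this way. The sums in WD-Exos replicates 1 to 6 were 12509, 21899, 11773, 1843, 5675 and 1367 CPM. Tfrc lay at 3.62, 0.523, 22.6, 18.5, 0.999 and 8.77 CPM in the same order. Over the 24 libraries the Spearman correlation of the immediate early sum with Tfrc was 0.06, and the part of this sum in the Tfrc levels was not tested. The part of these markers in the Ireb2 to Aco1 difference was not tested.

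**Figure D3:**
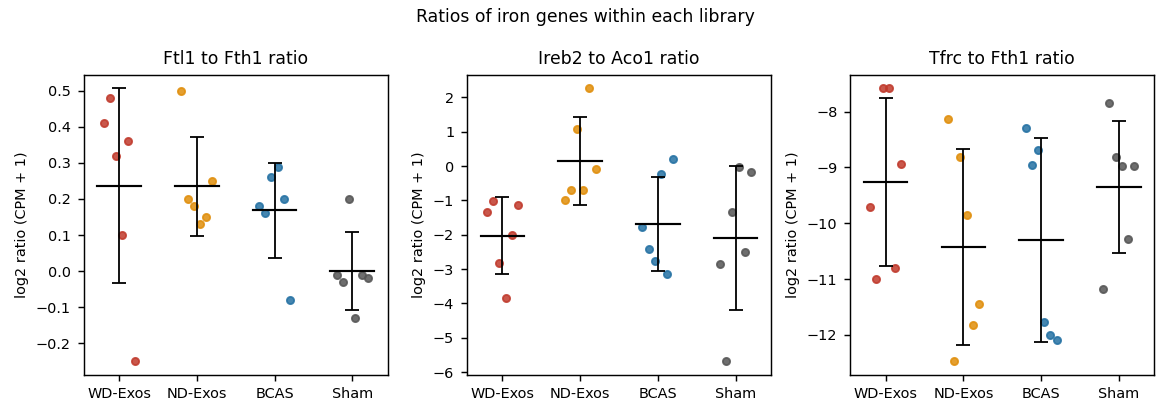
Log2 ratio within each library (y axes, CPM + 1) of Ftl1 to Fth1, Ireb2 to Aco1 and Tfrc to Fth1, with 6 points per group, a bar for the mean and whiskers for the SD. The Ireb2 to Aco1 points of WD-Exos, -3.84 to -1.03, lie below all those of ND-Exos, -0.98 to 2.27.

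Around the members, a wider set of 76 iron genes was counted, the 6 included, of which 71 had values and 64 were tested. None passed an edgeR adjusted p of 0.05 in any comparison, against the shares of 0% to 0.108% of all genes given above. At an unadjusted p under 0.05 there were 2 of 64 in BCAS against Sham, 1 in ND-Exos against BCAS, 0 in WD-Exos against BCAS, 3 in WD-Exos against ND-Exos, 4 in ND-Exos against Sham and 3 in WD-Exos against Sham, between 0% and 6.25% of them, where 3.71% to 6.66% of all genes were. Voom with library weights called none of the 64 in any comparison, against 0.00979% to 0.636% of all genes. DESeq2 called 1, Slc11a1 in WD-Exos against ND-Exos, where it called 1.23% of all genes, and none in the other comparisons, where it called 1.17% to 2.13%. The median log2 fold change of the 64 lay between -0.11, in WD-Exos against ND-Exos, and 0, in ND-Exos against BCAS, beside medians of -0.02 to 0.01 over all genes.

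The storage and ferritinophagy list held Fth1, Ftl1, Ncoa4, the iron chaperones Pcbp1 and Pcbp2, and Herc2, a ubiquitin ligase that acts on NCOA4 protein. All 6 tested genes of this list had lower estimates in WD-Exos than in ND-Exos (median log2 fold change -0.27, against -0.01 over all genes, of which 5195 of 10219 were lower) and than in BCAS (median -0.2, against -0.02 over all genes, of which 5219 were lower), and none of them passed the threshold in either. The 2 comparisons share the WD-Exos libraries. The largest such differences were those of Herc2 in WD-Exos against ND-Exos (131 ± 38.9 and 174 ± 119 CPM, log2 fold change -0.41, SE 0.36) and Pcbp2 in WD-Exos against BCAS (70.2 ± 27.1 and 96.6 ± 40.3 CPM, -0.46, SE 0.32), each with an edgeR adjusted p of 1.0. In WD-Exos against Sham 5 of 6 were lower, in BCAS against Sham and in ND-Exos against BCAS 2 of 6, and in ND-Exos against Sham 3 of 6.

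Other lists were one-sided in some comparisons as well. Of the 12 tested genes of iron import and release into the cytosol, 11 were lower in ND-Exos than in Sham (median log2 fold change -0.7, against 0 over all genes, of which 5105 of 10219 were lower), while 3 of 12 were lower in WD-Exos than in ND-Exos (median 0.46). Of 7 tested transcripts known to carry an iron-responsive element, a list that shares Fth1, Ftl1, Tfrc, Slc11a2 and Slc40a1 with the others, 7 were lower in BCAS than in Sham (median -0.21, 5122 of all genes lower), and between 3 and 5 of 7 in the other comparisons. Across the 6 comparisons the number lower ran from 1 to 3 of 4 export genes, 3 to 5 of 7 sensing and regulation genes, 3 to 8 of 12 haem genes and 9 to 15 of 21 genes of mitochondrial iron and iron-sulfur clusters. No gene of these lists passed the edgeR threshold, and the counts are a description.

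Among the other genes of the system, the 2 with the smallest p in each comparison were named. Slc11a1 (NRAMP1), which moves iron out of the phagosomes of macrophages, had medians of 348 CPM in WD-Exos, 175 in ND-Exos, 298 in BCAS and 282 in Sham, with SDs of 83, 79.9, 74.4 and 65.3 CPM (n = 6 each). WD-Exos ran from 278 to 514 CPM and ND-Exos from 133 to 357, so the ranges overlapped. In ND-Exos, replicate 5, at 357 CPM, lay apart from the other 5 libraries at 133 to 200.2 CPM. Slc11a1 in WD-Exos was 1.89 times its ND-Exos level (log2 fold change 0.92, SE 0.22, edgeR adjusted p = 0.299, voom adjusted p = 0.12), and DESeq2 called it (log2 fold change 0.93, adjusted p = 0.00553), as it did 1.23% of all genes in that comparison. Its log2 fold change was -0.54 in ND-Exos against BCAS (edgeR adjusted p = 0.768) and -0.56 in ND-Exos against Sham (adjusted p = 0.468).

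Slc40a1, which encodes the iron exporter ferroportin, stood at 86.8 ± 24.3 CPM in WD-Exos, 181 ± 121 in ND-Exos, 123 ± 54.9 in BCAS and 134 ± 54.2 in Sham. In WD-Exos it was 0.48 times its ND-Exos level (log2 fold change -1.06, SE 0.4, edgeR adjusted p = 0.614), with an ND-Exos library at 403 CPM. Fech, the last enzyme of haem synthesis, stood at 45.4 ± 12 CPM in WD-Exos, 76.6 ± 32.8 in ND-Exos, 80.5 ± 53.8 in BCAS and 35.4 ± 22 in Sham. The log2 fold change of Fech was 1.19 in BCAS against Sham (edgeR adjusted p = 0.479), 1.11 in ND-Exos against Sham (adjusted p = 0.544) and -0.83 in WD-Exos against BCAS (adjusted p = 1.0). Hspa9, a mitochondrial chaperone of iron-sulfur cluster assembly, stood at 146 ± 35.8 CPM in WD-Exos, 116 ± 38.8 in ND-Exos, 166 ± 62.4 in BCAS and 98.1 ± 30 in Sham. Its log2 fold change was 0.76 in BCAS against Sham (adjusted p = 0.392), -0.52 in ND-Exos against BCAS (adjusted p = 1.0) and 0.57 in WD-Exos against Sham (adjusted p = 0.835). The haem transporter Slc48a1 differed by 1.06 in WD-Exos against BCAS (118 ± 79.8 and 56.9 ± 42.3 CPM, adjusted p = 1.0). Rbx1, a ubiquitin ligase subunit shared by many complexes, differed by -0.52 in WD-Exos against Sham (116 ± 39.1 and 167 ± 26.7 CPM, adjusted p = 0.711).

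**Figure D4:**
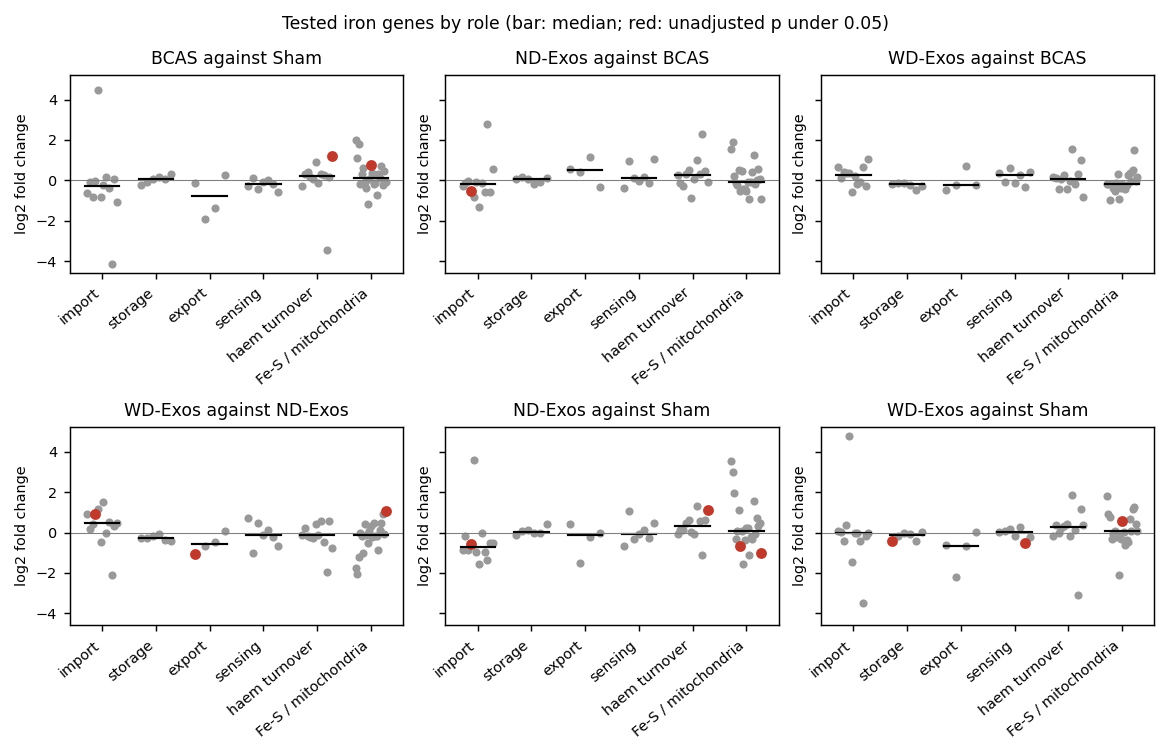
Log2 fold change (y axis, edgeR) of each tested iron gene, by role (x axis) and comparison (panels); bars are medians and red points have an unadjusted p under 0.05. The 6 storage genes lie below 0 in WD-Exos against ND-Exos and in WD-Exos against BCAS, as do 11 of 12 import genes in ND-Exos against Sham, and no point passed the adjusted threshold.

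Besides Slc40a1, 4 partners were given as levels. Trf stood at 4382 ± 561 CPM in WD-Exos, 3823 ± 396 in ND-Exos, 4112 ± 1352 in BCAS and 4322 ± 625 in Sham. Hmox1, which releases iron from haem, stood at 60.9 ± 18 CPM in WD-Exos, 65.5 ± 19.7 in ND-Exos, 54.8 ± 21.4 in BCAS and 67.7 ± 38.6 in Sham. Fbxl5, the iron sensor that marks IRP2 for degradation, stood at 57.5 ± 32.1 CPM in WD-Exos, 41.2 ± 27.3 in ND-Exos, 38.2 ± 32.8 in BCAS and 51.2 ± 30.5 in Sham. Slc11a2 (DMT1), which moves iron out of endosomes, stood at 29.5 ± 22.2 CPM in WD-Exos, 22 ± 18.6 in ND-Exos, 22.2 ± 23.4 in BCAS and 39.4 ± 17.7 in Sham. The SDs overlapped between the groups in each of the 4.

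The genes whose level followed each member most closely were taken as the 3 with the highest Spearman correlation over the 24 libraries among 5087 genes with a mean of at least 20 CPM, as a description. For Fth1 they were Pfdn5 (0.82), Rpl26 (0.81) and Sem1 (0.8), and for Ftl1 they were Ndufa12 (0.76), Fth1 (0.69) and Uqcrfs1 (0.68). For Ncoa4 the highest was Dpf2 (0.64), followed by Lsm14a (0.64) and Coa3 (0.63). For the sparser members the highest values were 0.69 for Tfrc (Med19 and Alg14, then Gltp at 0.67), 0.66 for Aco1 (Ganc, then Calr at 0.61 and Kat8 at 0.6) and 0.64 for Ireb2 (Ak3 and Wnk1, then Maf at 0.6).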

How the data were processed

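The authors deposited estimated counts per Entrez gene without scaling; in 76.8% of genes every library's value was whole (within 1e-09). Of 22064 identifiers 6186 were blank in every library, and 22002 matched a symbol in the RefSeq table of assembly GRCm38.p6. The aligner, the counting tool and the genome build of the authors were not given in the sources used here. Per the labels' protocols, microglia were sorted into lysis buffer and cDNA was amplified by Smart-seq2. Reads were amplified with no molecular identifier named, so limits from counts cover counting error only.

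After rounding to whole counts, genes were tested in R 4.3.3 with edgeR 4.0.16: filterByExpr with a minimum of 10 counts (10219 genes), TMM factors (0.9365 to 1.175), a robust quasi-likelihood fit of all 24 libraries, and Benjamini-Hochberg adjustment over all genes with a threshold of 0.05. Standard errors were derived from the F statistic, and intervals are 95%. The procedure was tested on simulated data. Ratios of log2(CPM + 1) were compared by exact two-sided permutation tests over all 924 splits, adjusted over 18 tests. Correlations used 100000 permutations. Alternatives were other size factors, filters and pseudocounts, a covariate, a replicate block, DESeq2 1.42.0, voom with library weights (limma 3.58.1) and leaving out each library.

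The members, ratios and gene lists were chosen with earlier results of these data known. The genes named were the members; of the other iron genes, any past the threshold, otherwise the 2 with the smallest p in each comparison; Slc40a1, Trf, Hmox1, Fbxl5 and Slc11a2 as levels; and the 3 genes most like each member. Herc2, Pcbp1 and Pcbp2 fall outside this rule and were named after their values were seen. Only WD-Exos against BCAS met the rule set for pairing by replicate number, that every pair of the same number correlates above 0.1. These correlations were 0.118 to 0.288 over 1423 genes above 100 CPM, as deviations from group means. The block changed no call there. The rule did not set pairs of unlike number beside these, so it cannot show whether libraries are paired. Near copies were found with blastn 2.17.0, and figures were drawn with matplotlib 3.10.9.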

Additional observations from a re-analysis of the deposited data

Results flagged for a closer look

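The log2 ratio of Ftl1 to Fth1 stood apart in 1 library of each of 3 groups, by the gap to its nearest neighbour as a share of the group's range (Dixon's test at its 95% critical value). In ND-Exos, replicate 1 had a log2 ratio of 0.5, with the nearest other library at 0.25. In BCAS, replicate 6 had -0.08, with the nearest at 0.16. In Sham, replicate 3 had 0.2, with the nearest at -0.01. Chance alone gives about 1 such library in 20 groups, and 36 groups were checked.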

How the results depend on the processing

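The count of members past the threshold stayed at 0 of 6 in all 6 comparisons under 8 other settings and 12 fits without 1 library for each comparison. Fth1 kept its direction in every one of these, and its log2 fold change in WD-Exos against Sham lay between -0.42 and -0.38 under the other settings (adjusted p 0.111 to 0.518). With replicate numbers as a block the Ireb2 to Aco1 difference in WD-Exos against ND-Exos was -2.17 with an adjusted p of 0.375 (exact sign-flip p = 0.0312, the smallest that 6 pairs can give). Those groups did not meet the pairing rule. Among the libraries of other groups, 6 of 24 libraries correlated best with one of their own number. The share that chance gives was not worked out, so this count does not show whether libraries are paired. The difference was -2.43 with a pseudocount of 0.1 CPM and -1.61 with 5 CPM, past the threshold in both.

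Signs of small differences did turn, none of them past the threshold, and the cause was not tested. A pseudocount of 0.1 CPM gave Tfrc to Fth1 0.19 in ND-Exos against BCAS and -0.13 in WD-Exos against Sham, and Ireb2 to Aco1 0.2 in WD-Exos against BCAS; 5 CPM gave Ireb2 to Aco1 -0.08 in WD-Exos against Sham. The replicate block gave Ireb2 -0.13 in BCAS against Sham and 0.57 in WD-Exos against BCAS, and Tfrc -0.53 in WD-Exos against Sham. Voom with library weights gave -0.2, 1.23 and -0.77 for the same, where its median over all genes lay at -0.122, 0.153 and 0.038 (edgeR -0.003, -0.016 and 0.006). With detected genes as a covariate, Ftl1 had 0.03 and Ncoa4 -0.07 in BCAS against Sham, Ncoa4 0.02 in WD-Exos against BCAS, and Ireb2 -0.12 in WD-Exos against Sham.

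Leaving out 1 library at a time, the ratio of Ftl1 to Fth1 ranged from -0.05 to 0.1 in WD-Exos against ND-Exos and from 0.18 to 0.27 in ND-Exos against Sham. Tfrc to Fth1 ranged from -0.58 to 0.28 in ND-Exos against BCAS and from -0.28 to 0.43 in WD-Exos against Sham. Ireb2 to Aco1 ranged from -2.4 to -1.75 in WD-Exos against ND-Exos, -0.31 to 0.82 in BCAS against Sham, -0.64 to 0.03 in WD-Exos against BCAS and -0.66 to 0.48 in WD-Exos against Sham. Among single genes, Ftl1 ranged from -0.14 to 0.05 in BCAS against Sham. Ireb2 ranged from -0.4 to 0.39 there, -0.4 to 0.47 in WD-Exos against BCAS and -0.28 to 0.33 in WD-Exos against Sham. Ncoa4 ranged from -0.04 to 0.18 both in BCAS against Sham and in ND-Exos against BCAS, from -0.23 to 0.0 in WD-Exos against BCAS and from -0.15 to 0.09 in WD-Exos against Sham. Tfrc ranged from -0.82 to 0.3 in ND-Exos against BCAS and -0.42 to 0.42 in WD-Exos against Sham, and Aco1 from -0.71 to 0.08 and -0.12 to 0.29 in the same 2 comparisons. Counts of Tfrc were under 30 in 8 libraries and of Ireb2 in 3, which limits both.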
